A study of Mus musculus with 25 samples.

Results

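A small number of βTC6 cells in a population made up mostly of αTC1 cells was followed here by chromatin accessibility. The comparison used 5 of the 25 libraries of the series: the ATAC-seq libraries of mixtures with 90%, 80% and 70% αTC1 cells, which held 10%, 20% and 30% βTC6 cells, and the libraries of pure αTC1 replicates 4 and 5, which belong to the same processing group. Each library was made from 100000 mouse cells, so the mixtures contained 10000, 20000 and 30000 βTC6 cells. Each mixture was sequenced once. αTC1 is alpha TC1 clone 6, a glucagon-producing line, and βTC6 is beta-TC-6, an insulin-producing line. Both came from pancreatic endocrine tumours of mice that carried the SV40 T antigen, under the glucagon gene promoter for αTC1 and under the insulin gene promoter for βTC6. Neither line was treated, and each stands for its cell type as a single tumour-derived culture. Pure αTC1 replicates 1 to 3 and pure βTC6 replicates 1 to 5 served only as references. The origin of the replicates, from 1 culture or several, is not given in the sources used here, and p-values measure only the spread between these libraries, which may be technical.

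ATAC-seq inserts sequencing adapters where a transposase can reach DNA, and reads therefore pile up over open promoters and enhancers. In a mixture the reads of a peak come from both cell types. A site open in the minor type adds its reads to whatever the major type gives at that site. Pancreatic alpha and beta cells are sister endocrine types with many open sites in common, and they are told apart by a limited set of regulators, such as Pdx1 in beta cells.

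The values are normalized read counts per consensus peak, which are reads scaled to a common effective library size. The 5 libraries held between 5277983 reads in peaks (10% βTC6) and 8300868 (αTC1 replicate 4), and 1 read was worth between 0.136 and 0.203 normalized reads. The table holds no 0, so a peak listed at 1 read cannot be told from an empty peak. A single peak nearest Lrrc4c took between 4.27% and 5.63% of the reads of these 5 libraries. The labels held for the lines at Pdx1 and Gcg, though not every marker promoter followed them. Replicates 4 and 5 had 0.409 and 0.144 normalized reads at the Pdx1 promoter peak in αTC1 and 32.0 and 25.3 in βTC6. The promoter peak of Gcg, the glucagon gene, had 155 and 148 in αTC1 and 32.2 and 23.3 in βTC6. The Mafa promoter peak went the other way, with 55.3 and 58.9 in αTC1 against 33.0 and 34.7 in βTC6. The Nkx6-1 promoter peak differed less, at 53.4 and 48.1 against 67.6 and 62.4.

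Peaks were first sorted into classes by the pure libraries that took no part in the comparison. Between replicates 1 to 3 of each line, limma on log2(normalized read count + 1) called 8157 of 65053 peaks (12.5%) more open in βTC6 and 3135 (4.82%) more open in αTC1 (Benjamini-Hochberg FDR under 5%, and more than 2 on the log2 scale between the lines). These are called βTC6-open and αTC1-open below, and the other 53761 peaks belong to neither class.

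The sequences of 5 distal sites follow, as examples of the sites that rose with the βTC6 percentage. Each is the central 200 bases of a peak on the mm9 plus strand, lies more than 2 kb from the nearest transcription start site and overlaps no annotated exon. Rgs9 was chosen because αTC1 had 1 read there, and the other 4 are the strongest βTC6-open peaks of genes known from beta cells: Ins1 encodes an insulin, Slc2a2 the glucose transporter GLUT2, Rfx6 a transcription factor of endocrine cells, and Ucn3 the peptide urocortin 3. Capitals mark matches to 6 short motifs, searched on both strands.
Rgs9 chr11:109131137-109131336: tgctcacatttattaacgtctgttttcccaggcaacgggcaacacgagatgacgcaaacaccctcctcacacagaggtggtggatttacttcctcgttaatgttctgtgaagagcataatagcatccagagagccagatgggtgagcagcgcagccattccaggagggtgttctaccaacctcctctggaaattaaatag
Ins1 chr19:52326942-52327141: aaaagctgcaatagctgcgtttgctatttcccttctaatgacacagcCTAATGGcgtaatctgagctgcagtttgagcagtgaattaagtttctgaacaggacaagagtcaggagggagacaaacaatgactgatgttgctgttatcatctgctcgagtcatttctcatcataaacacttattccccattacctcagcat
Slc2a2 chr3:28636201-28636400: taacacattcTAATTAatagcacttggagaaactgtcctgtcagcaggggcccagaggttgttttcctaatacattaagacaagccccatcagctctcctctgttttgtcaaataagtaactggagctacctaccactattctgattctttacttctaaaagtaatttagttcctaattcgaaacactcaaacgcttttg
Rfx6 chr10:51415489-51415688: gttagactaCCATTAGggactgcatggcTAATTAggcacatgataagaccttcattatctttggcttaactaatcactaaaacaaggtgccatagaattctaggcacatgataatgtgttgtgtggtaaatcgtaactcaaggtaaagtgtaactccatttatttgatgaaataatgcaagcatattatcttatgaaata
Ucn3 chr13:3998452-3998651: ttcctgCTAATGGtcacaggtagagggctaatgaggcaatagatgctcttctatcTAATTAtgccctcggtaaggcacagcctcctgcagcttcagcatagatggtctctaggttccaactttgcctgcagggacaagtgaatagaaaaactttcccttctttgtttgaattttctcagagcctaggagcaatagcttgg

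In the annotation used, no gene spanned the windows next to Rgs9, Ins1 and Ucn3. The Rgs9 peak lay 28258 bp downstream of the Rgs9 start. The Rfx6 window lay in an intron of Rfx6 and the Slc2a2 window inside the annotated span of 1700112D23Rik. The motifs searched were TAATTA and CTAATNG, which homeodomain proteins bind, the E-box CAGCTG, the forkhead core TGTTTAC, the AP-1 core TGANTCA, and AGGGGGC, a part of the CTCF motif. TAATTA and CTAATNG can share bases where matches lie side by side. TAATTA was present in 12.8% of the βTC6-open peaks that rose with the βTC6 percentage and in 13% of those not called, against 6.93% of all 65053 windows of the same length and 4.66% of αTC1-open windows. CTAATNG was present in 13.9%, 12.4%, 7.22% and 6.16% of the same sets. CAGCTG showed the other order, with 14.1% of rising and 14.6% of uncalled βTC6-open windows against 17.2% of all windows and 31.3% of αTC1-open windows. TGTTTAC was present in 6.83% of rising, 8.36% of uncalled and 6.31% of all windows, TGANTCA in 11.2%, 13.2% and 10.6%, and AGGGGGC in 3.32%, 2.50% and 5.33%. Among peaks with a mean of at least 40 normalized reads in βTC6 replicates 1 to 3, TAATTA was present in 10.2% of 422 rising windows and in 4 of 127 uncalled ones (3.15%), whereas the shares were 14% and 13.3% at a mean of 10 to 20 and 12.2% and 12.1% at 20 to 40. The median GC content was 43.5% in rising and 44.0% in uncalled βTC6-open windows, and 48.5% over all windows. These shares are descriptions without a test.

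The βTC6-open peaks gained reads in every step from pure αTC1 to 30% βTC6. Their median was 1.5 and 1.30 normalized reads in αTC1 replicates 4 and 5, 2.24 at 10%, 3.30 at 20% and 4.61 at 30% βTC6, and 13.7 and 15.2 in pure βTC6 replicates 4 and 5. The αTC1-open peaks went the other way, with medians of 18.2 and 20.1 in pure αTC1, 18.3 at 10%, 16.3 at 20% and 14.5 at 30%. The plot of class medians by library shows the βTC6-open class climbing while the peaks of neither class stay level.

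**Figure D1:**
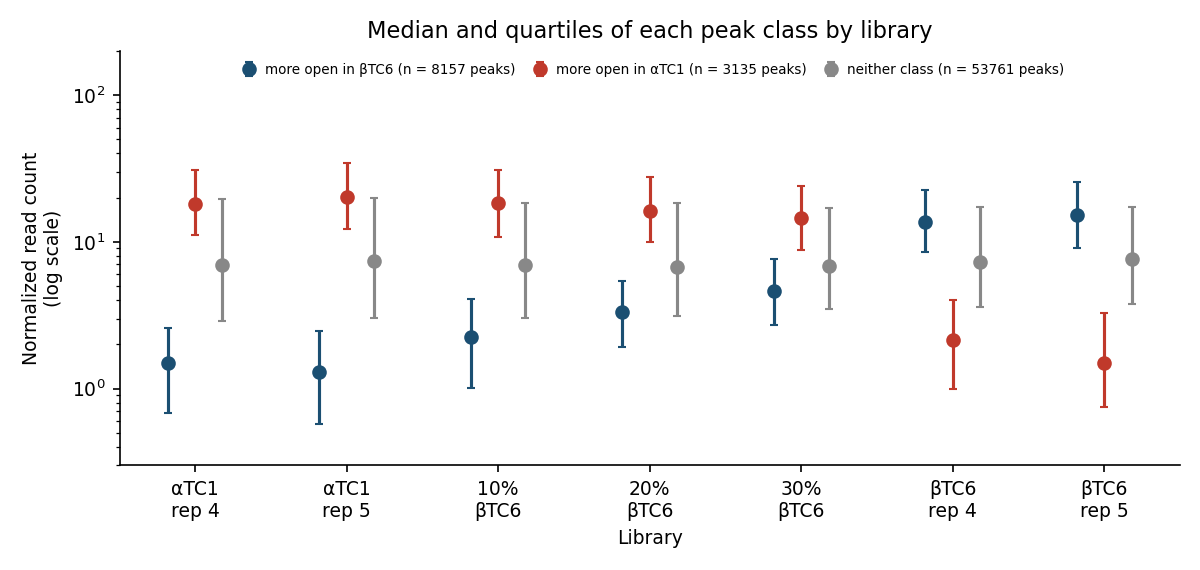
Median (points) and quartiles (bars) of the normalized read count on a log axis, for each peak class in the 2 pure αTC1, 3 mixture and 2 pure βTC6 libraries. The βTC6-open median rises from 1.30 and 1.5 in pure αTC1 to 4.61 at 30% βTC6, and lies at 13.7 and 15.2 in pure βTC6.

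The change was tested peak by peak as the slope of log2(normalized read count + 1) on the βTC6 percentage over the 5 libraries, with limma and Benjamini-Hochberg adjustment over all peaks. At an FDR under 5%, 2668 of 65053 peaks rose (4.10%) and 696 fell (1.07%). Of the βTC6-open peaks 2166 of 8157 rose (26.6%) and 0 fell. At an unadjusted p under 0.05 limma gave 4 βTC6-open peaks falling, and edgeR on the recovered reads called 0 falling and 2509 rising. Of the αTC1-open peaks 182 of 3135 fell and 0 rose, with 1 rising at an unadjusted p under 0.05 and 0 rising by edgeR. The peaks of neither class gave 502 rising (0.934%) and 514 falling. The median fitted change from 0% to 30% was 1.16 on the log2 scale over the βTC6-open peaks and -0.02 over all peaks. Every call depended on the 30% mixture: without it limma called 0 peaks in either direction, with 6728 peaks at an unadjusted p under 0.05, and with the 3 mixtures taken as a group against pure αTC1 it also called 0, with 9210 at that level. Without the 30% mixture, which also leaves fewer libraries and a shorter range, the slope per 10 points was 1.03 in place of 0.77 at the Pdx1 promoter, 0.56 in place of 0.54 at the Ins2 promoter, -0.26 in place of -0.32 at the Pax6 promoter and -0.12 in place of -0.24 at the Gapdh promoter. Quantile normalization left 647 rising and 17 falling peaks, so that rising peaks made up 97.4% of the calls instead of 79.3%. With all 5 pure αTC1 libraries 7149 peaks rose and 6017 fell, so that rising peaks made up 54.3%.

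Because each mixture is a single library, a second measure asked how many peaks each mixture would reveal on its own. A peak was counted where its normalized read count plus 1 was at least 2 times that of the higher of the 2 pure αTC1 libraries. Among βTC6-open peaks this was met by 763 (9.35%, Wilson 95% interval 8.74 to 10.0%) at 10% βTC6, by 1925 (23.6%, 22.7 to 24.5%) at 20% and by 3807 (46.7%, 45.6 to 47.8%) at 30%. Over all peaks the shares were 1.79%, 3.96% and 8.46%, and over peaks of neither class 0.748%, 1.21% and 3.15%. These intervals cover counting error only. The limit fell in the middle of a continuous range: at 10% βTC6 the lowest ratio counted was 2.0001 and the highest left out 1.999, and the median ratio over the βTC6-open peaks was 1.14, 1.48 and 1.93 in the 3 mixtures.

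The same measure between the 2 pure libraries gives its background. Of the βTC6-open peaks, 4.84% were past 2-fold in αTC1 replicate 4 over replicate 5 and 3.13% in replicate 5 over replicate 4. With 1 pure library as the reference in the same way, the 10% mixture had 18.1% over replicate 4 and 19.4% over replicate 5, the 20% mixture 35.4% and 38.2%, and the 30% mixture 58.3% and 60.7%. Over all peaks the shares were 2.14% and 2.28% between the pure libraries, and 5.06% and 4.54%, 7.62% and 7.77%, and 13.1% and 13.1% in the 3 mixtures. Peaks of neither class also went past their pure shares of 1.83% and 2.2%, with 3.34% and 2.54%, 3.84% and 3.59%, and 6.95% and 6.62%. Each mixture stood above the shares between the pure libraries in all these sets. Of the 763 peaks past the limit at 10%, 515 (67.5%) were also past it at 20% and 668 (87.5%) at 30%, and 487 were past it in all 3 mixtures. Those comparisons share the pure αTC1 libraries. A further 3986 βTC6-open peaks passed it in no mixture.

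Strong peaks passed the test and the limit most often. Both use the logarithm of a value plus 1, which by construction leaves less room to a weak peak. Peak strength was taken as the mean normalized read count of βTC6 replicates 1 to 3. Of the 2361 βTC6-open peaks with a strength of 5 to 10, 14.4% were called rising, against 20.1% of 3191 peaks from 10 to 20, 40.3% of 1837 from 20 to 40 and 76.9% of 549 at 40 and over. At 10% βTC6 the share past 2-fold was 5.76%, 7.87%, 13.6% and 20.8% in these bins, at 20% it was 14.2%, 20.2%, 35.3% and 50.6%, and at 30% it was 33.2%, 44.7%, 62.3% and 74.0%. In peaks of neither class the share fell with strength from the bin of 5 to 10 upward. At 30% βTC6 it went from 4.99% at 5 to 10 over 2.69% and 0.525% to 0.133% at 40 and over. At 10% it went from 1.21% to 0%. Neither-class peaks under a strength of 5 gave 3.70% at 30% and 1.05% at 10%. The shares between pure libraries showed no such climb, at 4.24%, 5.92%, 4.30% and 4.19% for αTC1 replicate 4 over replicate 5 and 2.92%, 3.70%, 2.94% and 1.82% for the reverse.

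**Figure D2:**
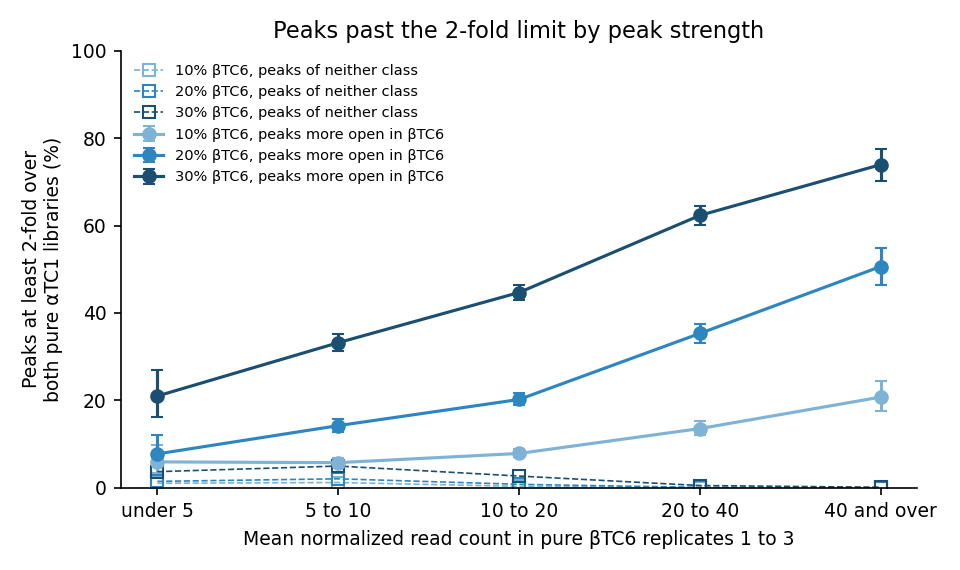
Share of peaks at least 2-fold over both pure αTC1 libraries (percent) against the strength of the peak in pure βTC6, for the 3 mixtures. Filled circles are βTC6-open peaks with Wilson 95% intervals, open squares are peaks of neither class, and at 30% βTC6 the filled circles climb from 21.0% to 74.0%.

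At matched strength, sites with few reads in αTC1 itself passed the limit more often. Among βTC6-open peaks with a strength of 20 to 40, the 35 peaks with under 0.5 normalized reads in αTC1 replicates 1 to 3 were past 2-fold in 45.7%, 85.7% and 94.3% of cases at 10%, 20% and 30% βTC6. The 530 peaks with 1 to 2 reads reached 20.6%, 52.6% and 81.7%, and the 395 peaks with 4 reads or more reached 1.77%, 11.9% and 36.2%. At a strength of 40 and over, all 9 peaks under 0.5 reads were past the limit at 20% βTC6 and 66.7% of them at 10%, whereas the 290 peaks with 4 reads or more gave 6.21%, 26.2% and 56.2%. The ratio is lower by construction where αTC1 already has reads, which is why the next measure does not use a fold.

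The gain in reads was read as a share of the distance between the pure lines. It was of similar size at weak and strong sites at 20% and 30%, and climbed with strength at 10%. It was computed as the mixture minus the mean of αTC1 replicates 4 and 5, divided by the mean of βTC6 replicates 4 and 5 minus the same mean, with values summed over peaks. Over the βTC6-open peaks it came to 6.60% (6.11 to 7.16% over the 4 pairs of pure references) at 10%, 13.3% (12.3 to 14.4%) at 20% and 23.2% (21.5 to 25.1%) at 30%. All 3 values lay below the mixed percentage, beyond the range set by the references. Over the bins of strength the value ranged from 5.93% to 7.44% at 10%, from 11.2% to 13.4% at 20% and from 21.5% to 24.1% at 30%. At 10% it climbed in every bin from the weakest to the strongest. At 30% the 24.1% belonged to the bin of 5 to 10, and the strongest bin had 22.4%. The loss at αTC1-open peaks gave 5.78% (0.645 to 10.5%), 17.7% (13.1 to 21.9%) and 29.6% (25.6 to 33.3%). In all 3 mixtures the range from the αTC1-open peaks held the mixed percentage, and that from the βTC6-open peaks did not.

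Beta-cell genes were revealed at some loci and not at others. Of 14 transcription factor genes of beta cells with a promoter peak, limma called 1 rising (Pdx1) and 1 falling (Pax6), and of 21 promoters of genes of hormones, glucose sensing and secretion it called 7 rising and 0 falling (3 falling at an unadjusted p under 0.05, 0 by edgeR). Over all peaks 4.10% rose and 1.07% fell. The 7 were Ins1, Ins2, Iapp, Pcsk1, Sytl4, Tmem215 and Abca5. The median change from 0% to 30% was -0.06 on the log2 scale for the transcription factor promoters and 0.74 for the hormone and secretion promoters, beside -0.23 for all peaks within 2 kb of a start site. The first list held 3 βTC6-open promoters of 14 and the second 11 of 21. Within 100 kb, 5 of 21 and 16 of 42 βTC6-open peaks of the lists rose, beside 26.6% of all βTC6-open peaks.

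The Pdx1 promoter peak (chr5:148081496-148081903, 7 bp from the start site) belongs to the gene of a homeodomain factor that beta cells need. It had 3 and 1 reads in αTC1 replicates 4 and 5, and 12, 23 and 30 reads at 10%, 20% and 30% βTC6. In normalized reads these are 0.409, 0.144, 2.44, 3.99 and 4.77, and no mixture overlapped these 2 pure libraries. The slope was 0.77 per 10 points on the log2 scale (standard error 0.15, adjusted p = 0.0150 from limma), and all 3 mixtures were past 2-fold.

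The 2 insulin genes differed in level. The Ins1 promoter peak (chr19:52338371-52339237) had 1.64 and 1.16 normalized reads in pure αTC1, then 5.69, 11.1 and 13.8 (slope 0.93, standard error 0.15, adjusted p = 0.00773 from limma). The Ins1 site 11771 bp upstream, whose sequence is given above, had 0.546 and 0.433, then 5.08, 6.42 and 14 (slope 1.09, standard error 0.16, adjusted p = 0.00705). Both Ins1 sites were past 2-fold in every mixture. The Ins2 promoter peak (chr7:149865420-149866225) had 0.819 and 1.16, then 1.83, 3.30 and 4.93, and passed 2-fold at 30% only (slope 0.54, standard error 0.14, adjusted p = 0.0404). In the FPKM values of the pure lines, RNA levels per gene length and library size, Ins2 stood at 30081 ± 6150 (SD, n = 3) in βTC6 and Ins1 at 2000.3 ± 395, so the gene with more RNA was not the one with the stronger promoter peak.

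Iapp encodes the islet amyloid polypeptide that beta cells release with insulin. Its promoter peak had 3.28 and 5.20 normalized reads in pure αTC1, then 6.10, 12.3 and 13 (slope 0.53, standard error 0.13, adjusted p = 0.0311 from limma). Pcsk1, a convertase that processes proinsulin, had 4.50 and 2.46, then 5.89, 9.20 and 13. Sytl4, a granule exocytosis protein also called granuphilin, had 0.409 and 0.144, then 2.03, 2.43 and 2.70, past 2-fold in every mixture. Tmem215 had 0.955 and 0.867, then 2.64, 6.08 and 9.70, with a slope of 0.85 (standard error 0.14, adjusted p = 0.00923). In none of these did a mixture overlap αTC1 replicates 4 and 5, although αTC1 replicate 2, of the other processing group, had 2.67 at the Tmem215 promoter.

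**Figure D3:**
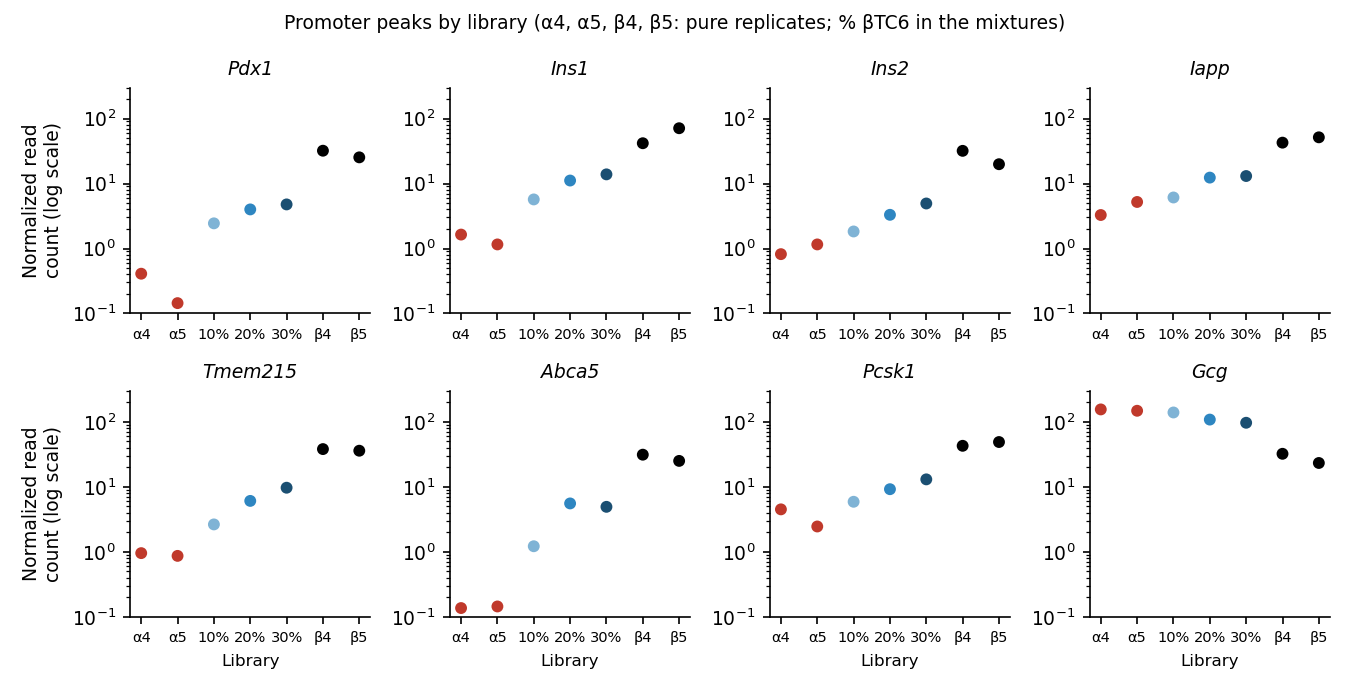
Normalized read count on a log axis at the promoter peaks of 8 genes in each pure and mixture library. The 7 βTC6-open promoters rise from αTC1 to 30% βTC6, Pdx1 from 0.144 and 0.409 to 4.77, while Gcg falls.

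At some genes a distal site was called and the promoter was not. The strongest βTC6-open peak of each gene, promoter or distal, rose for 3 of 9 transcription factor genes and 8 of 14 hormone and secretion genes. Of all βTC6-open peaks 26.6% rose, with 40.3% at a strength of 20 to 40 and 76.9% at 40 and over. The listed peaks were picked for strength, so 26.6% is not a matched share. At Sytl4 the promoter was called and the strongest site was not, with an adjusted p of 0.0428 and 0.761 from limma. The Mafa promoter was open in both lines, with 55.3 and 58.9 normalized reads in pure αTC1 and 33.0 and 34.7 in pure βTC6. The mixtures had 57.7, 62.9 and 53.2 there (slope -0.01, adjusted p = 0.937 from limma, with a slope above 0 under 4 alternatives). The strongest βTC6-open site near Mafa, more than 2 kb from its start, had 0.273 and 2.02, then 2.64, 7.29 and 9.85 (slope 0.87, standard error 0.17, adjusted p = 0.0152). The Slc2a2 promoter gave an adjusted p of 0.0781, and the site 39475 bp away had 2.05 and 2.02, then 4.27, 12 and 15.6 (slope 0.87, standard error 0.13, adjusted p = 0.00751). The Rfx6 promoter gave an adjusted p of 0.246, and the intronic site had 6.96 and 5.92, then 8.33, 10.2 and 17.0 (adjusted p = 0.0438). Ucn3 had no promoter peak, and its site at 53957 bp had 1.36 and 1.01, then 4.47, 4.17 and 6.36 (adjusted p = 0.0491). The Nkx6-1 promoter, of another beta-cell homeodomain factor, was open in both lines, with 53.4 and 48.1 in pure αTC1 and 51.2, 52.8 and 46.3 in the mixtures, and its strongest βTC6-open site gave an adjusted p of 0.0794 from limma. The slopes of promoter and distal site were not compared by a test.

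Of 12 alpha gene promoters, 2 fell and 0 rose by limma (1 rising at an unadjusted p under 0.05, and 1 by edgeR). Over all peaks 1.07% fell, and 5.81% of αTC1-open peaks did. The Gcg promoter peak, at the glucagon gene, had 155 and 148 normalized reads in pure αTC1 and 139, 108 and 96.8 in the mixtures (slope -0.22, standard error 0.05, adjusted p = 0.0178 from limma). Pax6, which both cell types use, had 122 and 83.2 in pure αTC1, then 81.3, 70.0 and 48.8, and 64.8 and 38.3 in pure βTC6, so that its 30% mixture lay between the 2 βTC6 libraries. Among 7 promoters listed as open in both lines, 1 fell (3 falling at an unadjusted p under 0.05) and 0 rose, with 0 rising at an unadjusted p under 0.05 and 0 by edgeR. The promoter that fell was that of Gapdh, a glycolytic enzyme, with 66.6 and 61.0 in pure αTC1, then 52.4, 55.4 and 34.6, and 19.8 and 15.4 in pure βTC6.

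Over all peaks, the 5 largest positive moderated t-statistics belonged to peaks nearest C130026I21Rik, Amz2, Plppr4, Chsy3 and Rgs9. The peak nearest C130026I21Rik (chr1:85283610-85284964) was already open in αTC1, with 25 and 23.7 normalized reads, and had 34.9, 51.4 and 72.5 in the mixtures (slope 0.52, standard error 0.06, adjusted p = 0.00661 from limma). Plppr4 had 4.37 and 3.61 at its promoter, then 9.96, 17.0 and 29.4, and Chsy3, which encodes a chondroitin sulfate synthase, 3.14 and 4.19, then 8.74, 16.8 and 27.7. The largest negative statistics belonged to promoters of 1700001G17Rik, Hist1h2af and Cdk1, which are of neither class, and to αTC1-open sites nearest Atf7ip and Dner. At the Dner site the values were 152 and 119, then 114, 99.5 and 69.3.

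On chromosome 11, a run of 54 neighbouring consensus peaks between 109037675 and 111177459 was at 1 read in every pure αTC1 library, replicates 4 and 5 included. The run spans 2140 kb and 17 nearest genes, among them Rgs9 (a regulator of G protein signalling), Gna13 (a G protein subunit), Amz2 (a metallopeptidase), Wipi1 (an autophagy protein), Prkar1a (a regulatory subunit of protein kinase A), Map2k6 (a MAP kinase kinase) and Kcnj2 (a potassium channel). In it 53 of the 54 peaks were βTC6-open. In pure βTC6 replicates 4 and 5 all 54 had more than 1 read. In the mixtures 23 peaks rose above 1 read at 10%, 45 at 20% and 50 at 30%, with 217, 749 and 1166 reads in all, against 54 reads in each of αTC1 replicates 4 and 5, which is the floor of 1 a peak. Limma called 34 of the 54 rising, and 13 of the 15 promoter peaks in the run. Beside these, 4.10% of all peaks, 26.6% of βTC6-open peaks and 31.8% of βTC6-open promoter peaks rose. At under 0.5 normalized reads in αTC1 replicates 1 to 3, the run included, 25.3% of βTC6-open peaks rose. At that level it was 49.1% at a strength of 10 to 20, 94.3% at 20 to 40 and 100% at 40 and over. The share of the distance between the pure lines was 3.89% (3.66 to 4.16% over the reference pairs) at 10%, 13.1% (12.3 to 13.9%) at 20% and 19.0% (17.9 to 20.1%) at 30%, again below the mixed percentages.

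Single peaks in the run differed in when they appeared. The Wipi1 promoter peak (chr11:109472210-109473438) had 1 read in each pure αTC1 library and 43, 91 and 147 reads in the mixtures, or 8.74, 15.8 and 23.4 normalized reads (slope 1.53, standard error 0.20, adjusted p = 0.00661 from limma). The Amz2 promoter peak had 1 read, then 19, 79 and 115 (slope 1.45, standard error 0.17, adjusted p = 0.00661). The Rgs9 site 28258 bp from its start, printed above, had 11, 53 and 77 reads (slope 1.26). The Prkar1a promoter peak stood at 1 read at 10% βTC6, like pure αTC1, and at 32 and 39 reads at 20% and 30%, although it had 57.8 and 43.3 normalized reads in pure βTC6. Abca5, which encodes a lipid transporter and is a member of the secretion list, lies in the run as well, with 6, 32 and 31 reads at its promoter. RNA of these genes was listed at 0 FPKM in all 3 αTC1 libraries for Amz2, Wipi1, Gna13, Abca5, Fam20a and Map2k6, and at 50.0 ± 4.81 (SD, n = 3) for Amz2 and 77.6 ± 16.2 for Wipi1 in βTC6. Map2k6 stood at 3.13 ± 0.577 in βTC6. Kcnj2 and Kcnj16, also in the run, were listed at 0 in αTC1 and at 0.0833 and 0.00667 in βTC6, so that their RNA was near 0 in both lines although a Kcnj2 promoter peak was called rising.

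**Figure D4:**
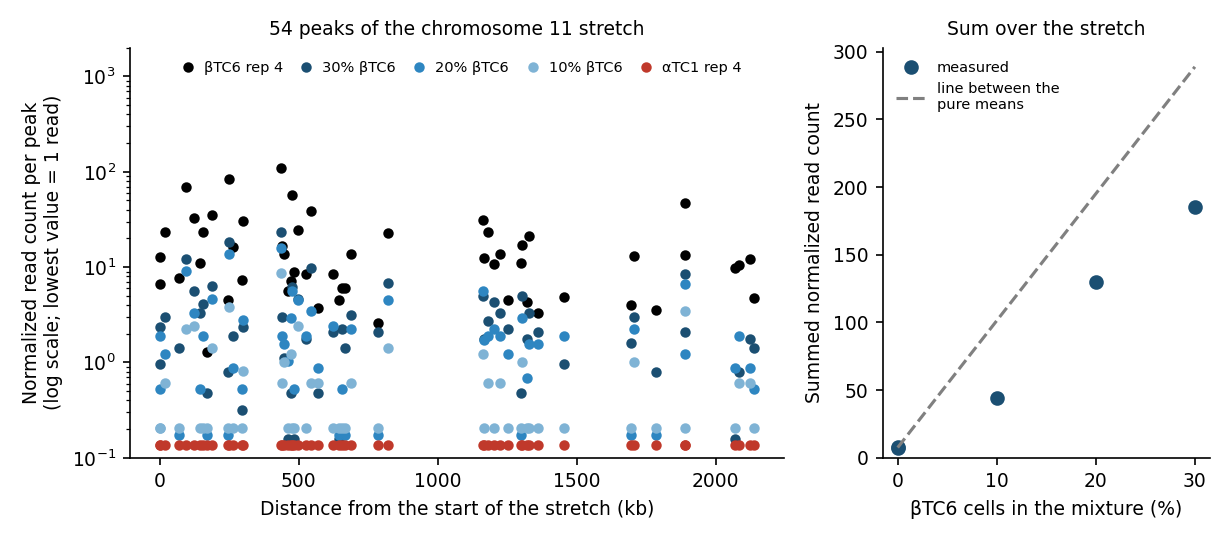
Left, normalized read count per peak on a log axis along the chromosome 11 run, by distance from its start in kb, in 1 pure library of each line and the 3 mixtures. Right, the value summed over the 54 peaks against the βTC6 percentage, with the line that joins the pure means as reference. The summed points reach 44.1, 130 and 185 at 10%, 20% and 30% and lie below the line.

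Runs of at least 3 neighbouring peaks at 1 read in αTC1 replicates 1 to 3 numbered 46, with 276 peaks, and 25 of them were at 1 read in βTC6 replicates 1 to 3 too, among them a run of 29 peaks over 1462 kb on chromosome 2. With a mean over the run of at least 10 reads a peak in each of βTC6 replicates 1 to 3, 6 runs with 72 peaks remained. A second run on chromosome 11, from 108459224 to 108782598 near Cep112 and Axin2, rose from 5 reads over its 5 peaks in pure αTC1 to 15, 32 and 79. The runs near Scg5 (chromosome 2) and Ethe1 (chromosome 7) had 10, 35 and 43 reads and 12, 30 and 80 reads. Those near Dctn4 (chromosome 18) and Atrnl1 (chromosome 19) had at most 7 reads in any mixture, as many as αTC1 replicate 5 had near Dctn4. In these 4 runs outside chromosome 11, βTC6 replicate 5 was lower than the other βTC6 libraries, with 20.9 against 58.2 to 69.7 summed normalized reads near Scg5. Over the 6 runs together the share was 3.92% (3.55 to 4.36%), 12.7% (11.6 to 14.1%) and 19.3% (17.6 to 21.3%). Among single peaks, 517 βTC6-open peaks had no more than 3 reads in each of αTC1 replicates 1 to 3. Of these, 10.1%, 22.6% and 43.9% were past 2-fold at 10%, 20% and 30%, beside 9.35%, 23.6% and 46.7% of all βTC6-open peaks. The 517 were weaker, with a median strength of 6.23 in βTC6 against 13.7 over all βTC6-open peaks. All βTC6-open peaks with a strength of 5 to 10 gave 5.76%, 14.2% and 33.2%.

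By chromosome, the rising sites were most frequent on chromosome 14. It held 987 of the βTC6-open peaks and 384 of these rose (38.9%), against 24.9% of the 7170 on the other chromosomes. The genes with the most rising βTC6-open peaks next to them were all on chromosome 14: Slitrk1 with 12 of 24, Olfm4 with 11 of 30, Slitrk5 with 11 of 16 and Pcdh9 with 10 of 27. Peaks of neither class were also higher there in pure βTC6, with median differences from pure αTC1 of 0.91 and 1.09 on the log2 scale in replicates 4 and 5, and of 0.08, 0.10 and 0.21 in the 3 mixtures, and the part of this shift in the count was not tested. The share of the distance between the lines on chromosome 14 was 7.42%, 13.6% and 23.1%, close to the 6.48%, 13.2% and 23.2% of the other chromosomes.

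By place, promoters and far sites differed at a strength of 10 to 40 as deposited, and the difference changed with the scaling of the libraries. Of the βTC6-open peaks, 782 lay within 2 kb of a start site, 678 at 2 to 10 kb, 3305 at 10 to 100 kb and 3392 beyond 100 kb, and 31.8%, 19.8%, 21.7% and 31.5% of them rose. At a strength of 10 to 20 the share past 2-fold was 2.90%, 17.4% and 33.0% at promoters against 10.4%, 23.0% and 49.4% at far sites in the 3 mixtures. At 20 to 40 it was 8.05%, 33.9% and 55.9% against 16.1%, 40.7% and 69.3%. At 40 and over it was 20.0%, 52.9% and 77.1% against 21.4%, 49.2% and 75.4%. The βTC6-open promoters also had more reads in αTC1 replicates 1 to 3, with a median of 2.13 normalized reads against 1.35 at far sites. With both strength (20 to 40) and αTC1 level (1 to 2) matched, promoters gave 7.84%, 56.9% and 82.4% and far sites 24.2%, 58.5% and 85.4%. Peaks of neither class moved by place too: summed over promoters they stood at 0.913, 0.922 and 0.813 of the mean of pure αTC1, and beyond 100 kb, without the Lrrc4c peak, at 1.04, 0.976 and 1.03, while the 2 pure αTC1 libraries themselves lay between 0.972 and 1.03 in both places. Pure βTC6 stood at 0.771 and 0.777 at promoters, so the 30% mixture was nearer to βTC6 there than its composition. Beyond 100 kb pure βTC6 stood at 0.855 and 0.957, and the 30% mixture, at 1.03, did not move toward it.

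With each library scaled within each place to the peaks of neither class, an alternative chosen after seeing the data, promoters at a strength of 10 to 20 reached 5.80%, 24.3% and 50.0% and far sites 9.42%, 24.7% and 47.5%. At 20 to 40 promoters reached 13.6%, 40.7% and 74.2% and far sites 14.7%, 42.8% and 67.3%. At 40 and over promoters reached 25.7%, 59.3% and 89.3% and far sites 19.0%, 51.2% and 73.4%. The share of the distance between the lines at 30% was 21.9% at promoters and 24.8% at far sites as deposited, and 22.3% and 21.3% after the scaling, so its order turned round at that percentage. Far sites stayed above promoters after the scaling at 10% (6.28% against 5.15%) and at 20% (12.8% against 11.8%), as they were before it (7.64% against 5.21%, and 13.6% against 13.5%). The effect of place was not tested.

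**Figure D5:**
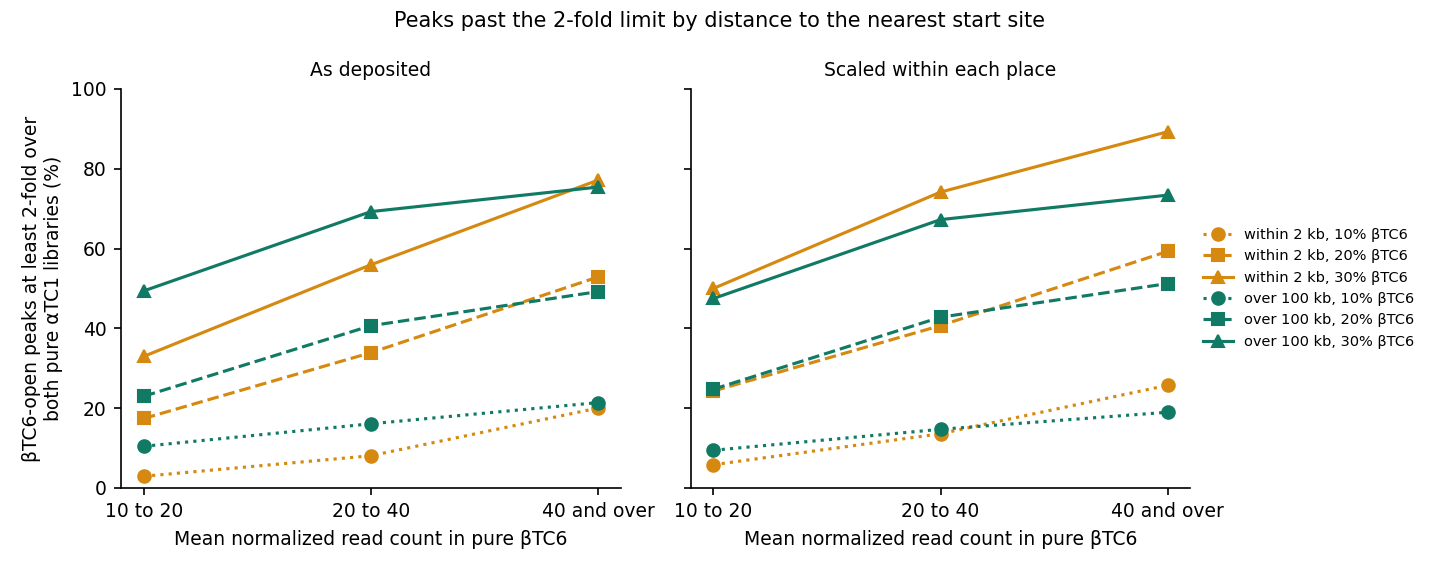
Share of βTC6-open peaks at least 2-fold over both pure αTC1 libraries (percent) against peak strength, for peaks within 2 kb (orange) and over 100 kb (green) from a start site, at 10% (dotted), 20% (dashed) and 30% (solid) βTC6. As deposited (left) far sites lie above promoters at a strength of 10 to 20, with 49.4% against 33.0% at 30%, and after scaling within each place (right) they stand at 47.5% and 50.0%.

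RNA of the genes at rising promoters was higher in βTC6. Of 208 genes with a rising βTC6-open promoter peak and an FPKM value, 56.2% had an FPKM of at least 1 in all 3 βTC6 libraries and under 1 in all 3 αTC1 libraries, and 94.2% had every βTC6 value above every αTC1 value. For βTC6-open promoters not called rising the shares were 42.5% and 81.3% of 459 genes, and for promoters of neither class 3.95% and 36.0% of 10608 genes. These RNA values come from the pure lines only and were not tested.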

How the data were processed

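ATAC-seq was measured in 19 libraries and RNA-seq in 6. For ATAC-seq the authors trimmed reads (Trimmomatic 0.32), aligned them to mm9 (BWA 0.7.9a), removed duplicates (Picard 1.95), called peaks per library (MACS2 2.1.0), merged them (DiffBind 2.2.5) and deposited a signal of TMM-normalized read counts per consensus peak with HOMER 4.6 annotation, from which distances to start sites were taken. Dividing by the lowest value of a library gave whole reads for 100% of the values, within 0.01 of a read. The authors deposited FPKM values made with RSEM 1.2.12, and these were only described. RSEM expected counts were not used. Columns of the authors' own peak calls were not used, and 0 sample columns were left over. Mitochondrial read shares in the study's library table were computed in a different way for replicates 1 to 3 than for the other libraries used here, which sets the processing groups.

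Tests used limma 3.58.1 with trend in R 4.3.3 on log2(value + 1), 2-sided, over 65053 peaks, with no filter. edgeR 4.0.16 on recovered reads was an alternative. The slope fit has 5 libraries, and 1 library per composition gives no replicate error for a mixture. A floor of 3 reads was between 3.6e-05% and 5.7e-05% of the reads in peaks of the 5 libraries. Summaries used Python 3.11.15, pandas 2.3.3, numpy 2.4.6 and statsmodels 0.14.6, and drawings matplotlib 3.10.9. Sequences were read from the mm9 genome, in which every chromosome's last peak ended.

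Named peaks were the nearest promoter peak and strongest βTC6-open peak of genes on fixed lists where the slope called them (or of Pdx1, Ins1, Ins2, Mafa, Nkx6-1 and Iapp), the 5 largest and 5 smallest moderated t-statistics, runs at 1 read, and the 5 strongest βTC6-open peaks at no more than 3 reads in αTC1. The comparison, the lists and the chromosome 11 run were chosen with earlier results of these data known. Some named items are not reported here. The limit of a mean of 10 reads a peak for runs, the printed windows and the genes with most rising peaks were chosen after values were seen. Alternatives covered the pseudocount, filter, normalization, model, limit, references and each library.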

Additional observations from a re-analysis of the deposited data

Results flagged for a closer look

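At the 33 named peaks, 66 groups of 5 pure libraries were checked for a library far from the other 4, by a criterion that chance meets in about 1 of 20 groups, and 8 were found. βTC6 replicate 5 was lowest at the promoters of Pax6 (38.3 normalized reads, next lowest 58.5), Hist1h2af (10.9, next 16.5) and Gapdh (15.4, next 19.8) and at the site near Dner (14.4, next 20.1), and highest at the Ins1 promoter (70.9, next highest 49.2). αTC1 replicate 5 was lowest at the Pcsk1 promoter (2.46, next 4.34). αTC1 replicate 2 was highest at the Tmem215 promoter (2.67, next highest 1.35) and αTC1 replicate 1 at the distal Slc2a2 site (2.94, next highest 2.05). Of these libraries the slopes use only αTC1 replicate 5, and without it the count of rising peaks was 799.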

How the results depend on the processing

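Leaving out 1 of the 5 libraries gave from 0 to 1789 rising, 0 to 352 falling and 0 to 1514 rising βTC6-open peaks. The 0 counts were without the 30% mixture, and without the other libraries rising peaks numbered 799 (αTC1 replicate 5), 1261 (αTC1 replicate 4), 1537 (20% mixture) and 1789 (10% mixture). Taking the mixtures as a group gave 0, 0 and 0 (9210 peaks at an unadjusted p under 0.05), quantile normalization 647, 17 and 595, and all 5 pure αTC1 libraries 7149, 6017 and 4834, with rising peaks 54.3% of the calls. Falling peaks numbered 1606 with a mean value of at least 2 (rising 63.9% of the calls), 1102 by edgeR and 109 with a fitted change of at least 1 (rising 96.0%). Without the 10% mixture 143 fell (rising 92.6% of the calls). Of 30 named peaks called, 0 held without the 30% mixture or with the mixtures grouped, 16 under quantile normalization, 29 by edgeR, and 22 to 24 without each other library. The slope at the Mafa promoter, not called, turned to 0.083 (quantile), 0.018 (grouped) and 0.0428 (all 5 pure), and ran from -0.0328 (without the 20% mixture) to 0.0636 (without the 30% mixture). That at the Nkx6-1 promoter, not called, turned to 0.0671 (quantile) and ran from -0.0564 (without αTC1 replicate 5) to 0.0277 (without the 30% mixture).

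The classes held 1563 and 728 peaks with a pseudocount of 5, 24833 and 23702 with no fold limit and 13177 and 5139 by edgeR. The replicate numbers did not pair the pure libraries (correlations of deviations from -0.004 to 0.008). A replicate block gave 8157 and 3135 again, with no call count changed. In this balanced design a block leaves the log2 fold changes as they are, so the equal counts say little about pairing.

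The shares past the limit at 10%, 20% and 30% βTC6 were 26.4%, 48.4% and 71.4% at 1.5-fold, 1.23%, 6.01% and 16.9% at 3-fold, 3.8%, 12.9% and 33.5% against the highest of all 5 pure αTC1 libraries, and 14.9%, 32.2% and 55.3% with a pseudocount of 0.5. With classes from all 5 replicates they were 24.9% and 49.5% at 20% and 30%, and scaled within each place 27.3% and 51.9%. With 1 pure library as the reference they ran from 18.1% to 19.4%, 35.4% to 38.2% and 58.3% to 60.7%. The share of the distance between the lines was 5.46% at 10% as the median per peak and 7.26% with all 5 references, and 5.60%, 12.1% and 21.1% scaled within each place. Runs at 1 read gave 6.29% at 10% as single peaks and 4.98% over all 46 runs. The cause of these moves was not tested.

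Few reads lie behind many values: a βTC6-open peak had a median of 11 and 9 reads in pure αTC1, 11 at 10%, 19 at 20% and 29 at 30% βTC6, and 8.68%, 12.1%, 7.99%, 2.24% and 0.588% of them were at 1 read.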

Other observations

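Falling peaks of neither class lay mostly at promoters. Of 514 such peaks 316 (61.5%) were within 2 kb of a start site, against 25.3% of all peaks of neither class. Of the 514, 513 had a lower mean in pure βTC6 than in pure αTC1, with a median difference of -1.15 on the log2 scale, so that neither class does not mean equal levels in the lines. In 86 of them the 30% mixture lay below all 4 pure libraries of the processing group, and the median ratio of the measured value at 30% to 70% αTC1 plus 30% βTC6 was 0.679, beside 0.939 at rising βTC6-open peaks. The same mixture decided which peaks were called, so these values are descriptions. All promoters of neither class together stood at 0.813 of pure αTC1 in the 30% mixture. At the promoter of Cdk1, a cell cycle kinase, the values were 58.4 and 58.8 in pure αTC1, 55.5, 39.6 and 30.2 in the mixtures and 35.5 and 33.0 in pure βTC6.

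Of 11 genes that mark other pancreatic cell types, 2 had a promoter peak (Sox9 of ducts and Col1a1 of mesenchyme). The Sox9 promoter had 10.8 and 10.4 normalized reads in pure αTC1, then 9.96, 9.72 and 9.38, and 2.43 and 0.939 in pure βTC6. The Col1a1 promoter had 12.6 and 10.7, then 5.28, 7.64 and 6.04 in the mixtures, and 5.99 and 4.51 in pure βTC6. The strongest βTC6-open peak near Sst, the somatostatin gene of delta cells, had 8.33 and 7.37, then 15.6, 10.1 and 15.4, and 44.9 and 63.3 in pure βTC6 (adjusted p = 0.201 from limma).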
